A study of Mus musculus with 6 samples.

Results

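Glucocorticoid-responsive genes were followed in lung tumours of mice kept in SD cages, set against those of home cage mice (Ctrl). They were chosen by name, with earlier results of these data known. The choice was 10 genes whose transcription is known to respond to glucocorticoid hormone: Klf9, Errfi1, Fkbp5, Tsc22d3, Sgk1, Zbtb16, Ddit4, Cebpd, Hif3a and Ccdc69. Of these, 9 were measured among the 10191 genes of the table, and Ccdc69 was not analysed here. What the letters SD stand for is not spelled out in the labels, though the title of the series names sleep deficiency. The SD and Ctrl groups had 3 libraries each. In both, per the labels, mice had received a virus whose kind and target cell type the labels do not name, and then spent 20 hours a day for 7 weeks in their cage, from hour 14 to hour 10, under light from hour 8 to hour 20. The 6 samples were treated as 1 genotype, although the number inside their genotype label is 1 higher in each. Age, sex and the hour of tissue collection are not given in the sources used here, and no hormone level was measured.

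Glucocorticoids are steroid hormones released by the adrenal cortex with a daily rhythm and in response to stress. They bind the glucocorticoid receptor, encoded by Nr3c1, which waits in the cytosol with heat shock proteins and co-chaperones, enters the nucleus and binds DNA at palindromic response elements. Its targets include transcription factors, inhibitors of growth factor signalling and brakes on the receptor itself, and in lung the hormone is known for promoting maturation of the alveolar epithelium and for restraining inflammation. Many targets also answer to other signals, such as growth factors, low oxygen and the circadian clock.

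The members moved in both directions. In SD tumours 3 of the 9 rose, Klf9, Cebpd and Tsc22d3, and 5 fell, Errfi1, Fkbp5, Zbtb16, Ddit4 and Sgk1, while Hif3a did not pass the test. The test was limma's on log2(CPM + 1), where CPM is the reads of a gene divided by those of its library and rescaled, with adjusted p-values over 9945 genes and a threshold of 0.05. Among all 9945 genes 56.4% passed, 27.7% higher and 28.7% lower in SD, so a gene taken from anywhere in the table often passed. SD and Ctrl libraries did not overlap for any of the 9 members, nor for 60.1% of all genes tested. The median log2 change of the members was -0.20, beside -0.01 over all genes, and the median size of change regardless of direction was 0.63, beside 0.39. The tumours were sequenced in bulk, so fewer cells of a type and less RNA per cell cannot be told apart for any of these genes. Nor can a difference between the groups in the hour of collection be told apart from the cages. The name of the group stands for its known regulation; in these tumours the members did not move in 1 direction.

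Library totals were 6511192 to 6968966 reads in SD and 7021019 to 7417095 in Ctrl, so that 3 reads equalled 0.404 to 0.461 CPM. Replicates correlated at Pearson's r of at least 0.987 within SD and 0.990 within Ctrl across genes, against at most 0.944 between the groups. Each pair of replicates differed by more than sampling noise, with a chi-square of 2.79 to 3.55 per gene. Lung identity was seen in Sftpc, surfactant protein C, at 1180 CPM in SD and 4033 CPM in Ctrl. The 60 genes listed ahead of Aaas in the table were all higher in SD and were left out of the fit; no member was among them.

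Upstream DNA was read for the members with RefSeq start sites on GRCm38.p6, the assembly behind mm10. There were 15 annotated starts for 7 members; Cebpd and Zbtb16 had no entry. In the 250 bases before each start, the full glucocorticoid response element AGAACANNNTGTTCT was searched on both strands, with any overlap allowed, together with its single arm AGAACA, the cAMP response element TGACGTCA, the GC box GGGCGG and the E-box CACGTG. The full element was found before 1 of the 15 starts, an internal start of Sgk1, and before 3 of 32851 starts in the whole table (0.00913%). The single arm was found before 4 of the 15 starts, in Sgk1 and Tsc22d3, and before 16.1% of all starts. A match is a description of letters and not a binding site, and most known response elements lie outside such short windows.

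The windows of the strongest riser by adjusted p, the strongest faller and the member with a full element are shown, 5′ to 3′ on the strand of the gene. Capitals mark the full element, single arms and the cAMP response element.
Klf9, chr19:23140976-23141225, plus strand: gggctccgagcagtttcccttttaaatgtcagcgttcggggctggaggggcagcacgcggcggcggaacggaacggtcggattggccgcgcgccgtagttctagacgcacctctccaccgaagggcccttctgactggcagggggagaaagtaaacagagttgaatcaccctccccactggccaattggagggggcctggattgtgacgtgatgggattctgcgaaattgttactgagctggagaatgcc
Errfi1, chr4:150854820-150855069, plus strand: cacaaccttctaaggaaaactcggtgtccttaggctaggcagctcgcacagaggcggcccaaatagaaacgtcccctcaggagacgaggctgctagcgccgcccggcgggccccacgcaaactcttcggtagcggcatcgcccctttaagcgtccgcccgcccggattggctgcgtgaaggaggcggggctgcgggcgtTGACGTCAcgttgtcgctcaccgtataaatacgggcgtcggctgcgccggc
Sgk1, chr10:21993640-21993889, plus strand: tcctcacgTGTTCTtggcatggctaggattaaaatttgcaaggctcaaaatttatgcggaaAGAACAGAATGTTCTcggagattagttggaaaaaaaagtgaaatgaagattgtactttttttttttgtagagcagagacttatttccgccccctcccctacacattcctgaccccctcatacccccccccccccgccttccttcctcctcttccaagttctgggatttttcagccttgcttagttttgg
In the Klf9 window none of the 5 motifs was present. Errfi1 has 2 annotated starts, and the window of the other, upstream one held none of the 5 motifs. The Errfi1 window shown held TGACGTCA, 51 to 44 bases before the start, which 1.55% of all starts have. It also held 3 GC boxes, 2 of which overlap. The antisense gene 1700045H11Rik overlaps Errfi1 on the other strand, with 0 exon bases shared. In the Sgk1 window the element read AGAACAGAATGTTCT, 189 to 175 bases before the start, with a further arm, TGTTCT, 242 bases before the start that overlaps an E-box. The Tsc22d3 start farthest upstream had TGTTCT, the arm read on the other strand, 185 bases before it.

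Klf9 encodes a zinc finger repressor of the Krüppel-like family that glucocorticoid and thyroid hormone are known to induce. It measured 747, 754 and 766 CPM in the SD libraries, against 428, 468 and 407 CPM in the Ctrl libraries. All SD libraries lay well above all Ctrl libraries, and the SD values lay close together. The means were 756 ± 9.35 CPM in SD and 434 ± 30.6 CPM in Ctrl (standard deviation over 3 libraries each, as for all ± values in CPM), a 1.74-fold difference with a log2 change of 0.80 ± 0.05 (standard error, as for all log2 changes, adjusted p = 7.8e-18). The gene lies on chromosome 19, 23141226 to 23168134 (mm10), and 21.0% of the genes tested changed by more.

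Cebpd encodes C/EBP delta, a transcription factor of acute-phase and inflammatory responses. Its level was 524, 548 and 518 CPM in SD tumours, against 300, 275 and 309 CPM in Ctrl tumours, again with no overlap. It rose 1.80-fold (log2 change 0.85 ± 0.05, adjusted p = 1.1e-17), close in size to Klf9. The gene lies on chromosome 16, 15887286 to 15891031, and 562 of its exon bases also belong to Spidr on the opposite strand. No strand setting is stated for the counting, so reads from that stretch cannot be told apart.

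Zbtb16 encodes PLZF, a zinc finger repressor that is a classical glucocorticoid target. It stood at 31.0, 37.7 and 33.8 CPM in SD, against 49.8, 57.0 and 53.6 CPM in Ctrl. It fell to 34.2 ± 3.38 CPM in SD, against 53.5 ± 3.60 CPM in Ctrl (log2 change -0.63 ± 0.11, adjusted p = 2.8e-06). Among the transcription factors of the group it thus went the other way from Klf9 and Cebpd.

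Hif3a encodes the alpha subunit of a hypoxia-inducible factor that can act as a dominant negative partner of the others. With 29, 24 and 21 reads in SD and 19, 19 and 14 reads in Ctrl it was the least abundant member. In CPM these were 4.45, 3.44 and 3.14 in SD, against 2.62, 2.56 and 1.99 in Ctrl. The libraries did not overlap, yet the change of 0.46 ± 0.27 on the log2 scale did not pass (adjusted p = 0.15), and its 95% interval ran from -0.10 to 1.01. That interval holds both no change and a log2 change of 1.

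**Figure D1:**
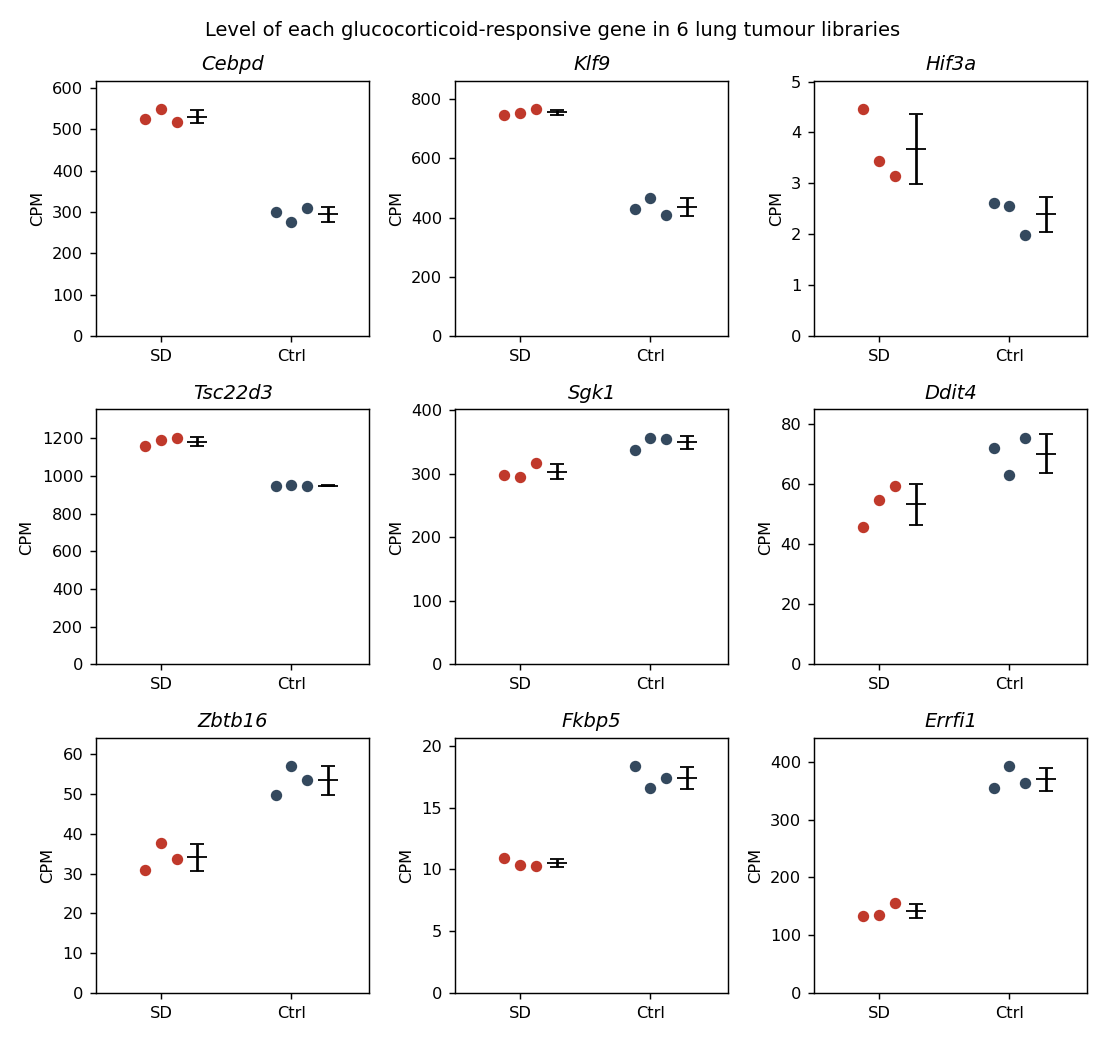
Level of each of the 9 members in CPM, with 1 point per library (3 SD, 3 Ctrl) and the mean with its standard deviation beside the points; panels run from the largest rise to the largest fall, and each axis starts at 0. The 3 SD points lie on 1 side of the 3 Ctrl points in every panel, above them for Cebpd, Klf9, Hif3a and Tsc22d3 and below them for the other 5.

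Errfi1, also called MIG6, encodes a feedback inhibitor that binds the kinase domains of EGFR and its relatives. It had the largest change of the group. The SD libraries held 134, 136 and 155 CPM, against 355, 393 and 364 CPM in the Ctrl libraries, so the highest SD library lay far below the lowest Ctrl library. The means were 142 ± 11.96 CPM in SD and 370 ± 19.8 CPM in Ctrl, 2.62-fold lower in SD (log2 change -1.38 ± 0.06, adjusted p = 9.1e-22). Only 6.08% of the genes tested changed by more. The gene spans chromosome 4, 150853919 to 150868892.

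Tsc22d3, also called GILZ, encodes a leucine zipper protein that restrains inflammatory transcription. It was the most abundant member and rose modestly. Its SD libraries held 1156, 1188 and 1202 CPM, against 948, 950 and 946 CPM in Ctrl, which gave a 1.25-fold difference (log2 change 0.32 ± 0.04, adjusted p = 2.4e-09). The gap between the nearest libraries of the groups was 206 CPM. The spread in Ctrl, 2.08 CPM, rests on 3 libraries that happened to lie close together, and estimates the variation among replicates only roughly.

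Fkbp5 encodes a co-chaperone that lowers the affinity of the glucocorticoid receptor for hormone, and is itself induced by the receptor. It measured 10.9, 10.3 and 10.3 CPM in SD tumours, against 18.4, 16.6 and 17.4 CPM in Ctrl tumours. It fell 1.66-fold (log2 change -0.68 ± 0.17, adjusted p = 0.00092). These levels rest on 69 to 72 reads per SD library and 122 to 133 reads per Ctrl library.

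Ddit4, also called REDD1, encodes an inhibitor of the kinase mTORC1. It stood at 45.8, 54.7 and 59.3 CPM in SD, against 72.0, 63.0 and 75.3 CPM in Ctrl, with a narrow gap between the groups. It fell to 53.3 ± 6.89 CPM in SD, against 70.1 ± 6.41 CPM in Ctrl (log2 change -0.39 ± 0.10, adjusted p = 0.00063). Of all genes tested, 49.4% changed by more.

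Sgk1 encodes a kinase that keeps the epithelial sodium channel at the cell surface. Its SD libraries held 298, 295 and 317 CPM, against 337, 356 and 354 CPM in Ctrl. It had the smallest change of the group, 1.15-fold lower in SD (log2 change -0.20 ± 0.05, adjusted p = 0.00076), and 72.0% of the genes tested changed by more. It is the member whose window, shown above, held the full response element.

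**Figure D2:**
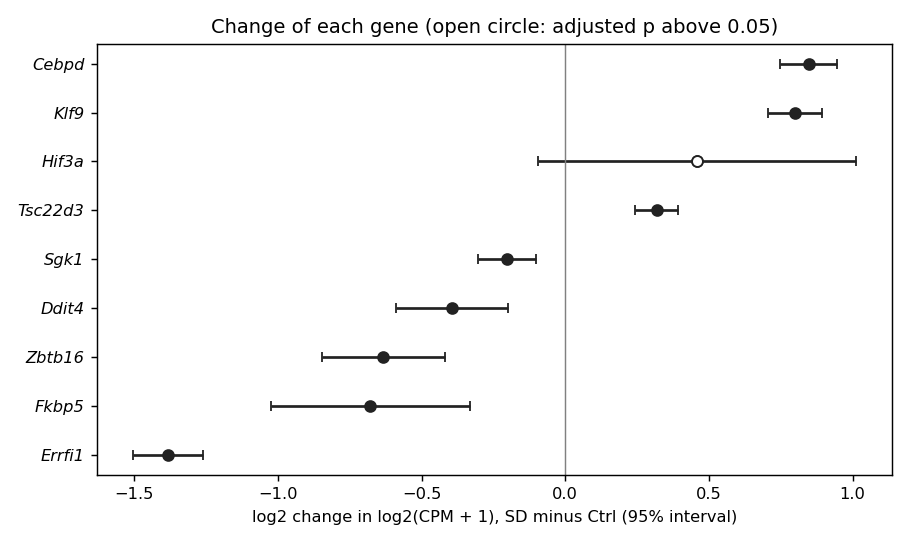
Log2 change of each member, SD minus Ctrl, on the log2(CPM + 1) scale (x axis) with its 95% interval from limma. The interval of Hif3a, the open circle, spans 0; those of Cebpd, Klf9 and Tsc22d3 lie above 0 and those of Sgk1, Ddit4, Zbtb16, Fkbp5 and Errfi1 below it.

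Levels were compared between members per length, as CPM per kb of annotated exon. In SD tumours the order from high to low was Tsc22d3 (272 CPM per kb), Klf9 (157), Cebpd (141), Sgk1 (61.9), Errfi1 (39.5), Ddit4 (30.4), Zbtb16 (6.47), Fkbp5 (1.11) and Hif3a (0.548). In Ctrl tumours it was Tsc22d3 (218 CPM per kb), Errfi1 (103), Klf9 (90.2), Cebpd (78.6), Sgk1 (71.2), Ddit4 (40.0), Zbtb16 (10.1), Fkbp5 (1.84) and Hif3a (0.357). Errfi1 thus had rank 5 in SD and rank 2 in Ctrl, while the order of the other 8 was the same in both groups. No neighbours in either order had overlapping library values. In Ctrl the libraries of Cebpd and Sgk1 nearly met, at 73.3 and 72.7 CPM per kb. Annotated exon length includes exons that a tissue may not use, which affects these levels and not the changes.

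**Figure D3:**
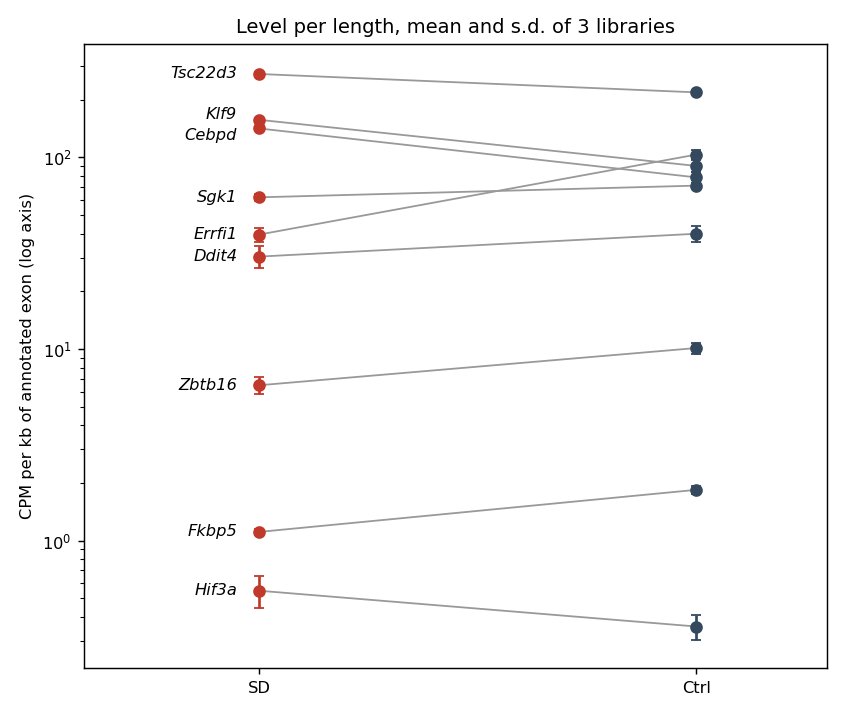
Mean level of each member per kb of annotated exon, on a log axis, in SD and Ctrl tumours; bars are the standard deviation over 3 libraries and grey lines join the 2 means of a gene. Errfi1 lies at 39.5 CPM per kb in SD and 103 in Ctrl, crossing Klf9, Cebpd and Sgk1, and no other lines cross.

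The apparatus that carries the hormone signal was measured in 30 of 33 listed genes, 28 of them tested; Ptges3 and Ppargc1a were among the 60 genes left out. Of the 28, 11 rose, 9 fell and 8 did not pass, 71.4% passing beside 56.4% of all genes, with a median log2 change of 0.08. Nr3c1, the glucocorticoid receptor, rose to 200 ± 4.42 CPM in SD, against 173 ± 11.6 CPM in Ctrl (log2 change 0.22, adjusted p = 0.0025). Nr3c2, the mineralocorticoid receptor that also binds glucocorticoids, rose to 25.0 ± 5.84 CPM, against 16.0 ± 3.12 CPM in Ctrl (adjusted p = 0.0020).

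Genes for the enzyme pair that regenerates active hormone inside cells went opposite ways. Hsd11b1, the reductase, measured 17.1, 13.1 and 13.8 CPM in SD libraries, against 5.25, 6.20 and 4.70 CPM in Ctrl libraries, and rose 2.72-fold (adjusted p = 1.5e-06). H6pd, which supplies that enzyme with NADPH in the endoplasmic reticulum, measured 17.4, 20.2 and 23.0 CPM in SD, against 49.7, 49.5 and 52.8 CPM in Ctrl, and fell 2.51-fold (adjusted p = 8.2e-12).

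Chaperones of the receptor also split. Hsp90aa1, the inducible HSP90, rose to 633 ± 17.1 CPM in SD, against 492 ± 39.7 CPM in Ctrl (adjusted p = 2.6e-08). Ppid, an immunophilin of the receptor complex, fell 2.94-fold, to 443 ± 6.11 CPM in SD, against 1300 ± 32.3 CPM in Ctrl (adjusted p = 6.1e-29). Hspa8, the constitutive HSC70, fell to 2632 ± 38.6 CPM, against 3403 ± 65.4 CPM in Ctrl (adjusted p = 7.4e-13). The coactivator Ncoa2 rose 1.38-fold (adjusted p = 5.7e-07).

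A wider list of 55 genes that glucocorticoids induce in various tissues had 44 members tested. Of these 14 rose, 13 fell and 17 did not pass, so 61.4% passed beside 56.4% of all genes, with a median log2 change of 0.11. Among the fallers, Tfcp2l1 and Mfsd2a met the filter for testing only with their Ctrl libraries, where they were higher. Their fall is thus tied to the filter. With the filter of 10 CPM, which tested fewer genes, 12 of the list rose and 9 fell. Gpx3, a secreted glutathione peroxidase, rose to 983 ± 16.9 CPM in SD, against 459 ± 12.6 CPM in Ctrl (adjusted p = 1.3e-23). Map3k6, a stress-activated kinase, rose 3.06-fold (adjusted p = 2.6e-16) and Nfkbia, the inhibitor of NF-kappa B, 1.74-fold (adjusted p = 1.6e-15). Dusp1, a phosphatase that switches off MAP kinases, rose 1.40-fold (adjusted p = 1.1e-09) and the clock gene Per1 1.23-fold (adjusted p = 5.6e-06).

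Other members of that list fell. Txnip, an inhibitor of thioredoxin, fell to 430 ± 19.7 CPM in SD, against 821 ± 19.7 CPM in Ctrl (adjusted p = 1.5e-20). Glul, glutamine synthetase, fell 2.01-fold (adjusted p = 3.3e-20). Scnn1a, a subunit of the sodium channel that SGK1 regulates, fell to 183 ± 9.80 CPM, against 379 ± 20.1 CPM in Ctrl (adjusted p = 4.4e-19). Klf15, another Krüppel-like factor that the hormone induces, stood at 68.0 ± 4.51 CPM in SD and 59.8 ± 9.61 CPM in Ctrl and did not pass (adjusted p = 0.087), although it passed without Ctrl replicate 2 (adjusted p = 0.012).

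Of the inflammatory genes that glucocorticoids repress, 8 of 34 listed were tested, and the other 26 were not analysed here. Of the 8, 3 rose, 1 fell and 4 did not pass (50.0% passing, beside 56.4% of all genes). Csf1, a macrophage growth factor, rose to 28.6 ± 1.99 CPM in SD, against 10.5 ± 1.46 CPM in Ctrl (adjusted p = 1.6e-09). The chemokine gene Ccl5 rose 2.74-fold (adjusted p = 4.6e-05) and the transcription factor Irf1 1.27-fold (adjusted p = 1.6e-05). Nos2, the inducible nitric oxide synthase, fell to 0.693 ± 0.708 CPM in SD, against 2.90 ± 0.379 CPM in Ctrl (adjusted p = 0.00088), near the floor of 3 reads. Nos2 met the filter for testing only with its Ctrl libraries, where it was higher, so its fall is tied to the filter.

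**Figure D4:**
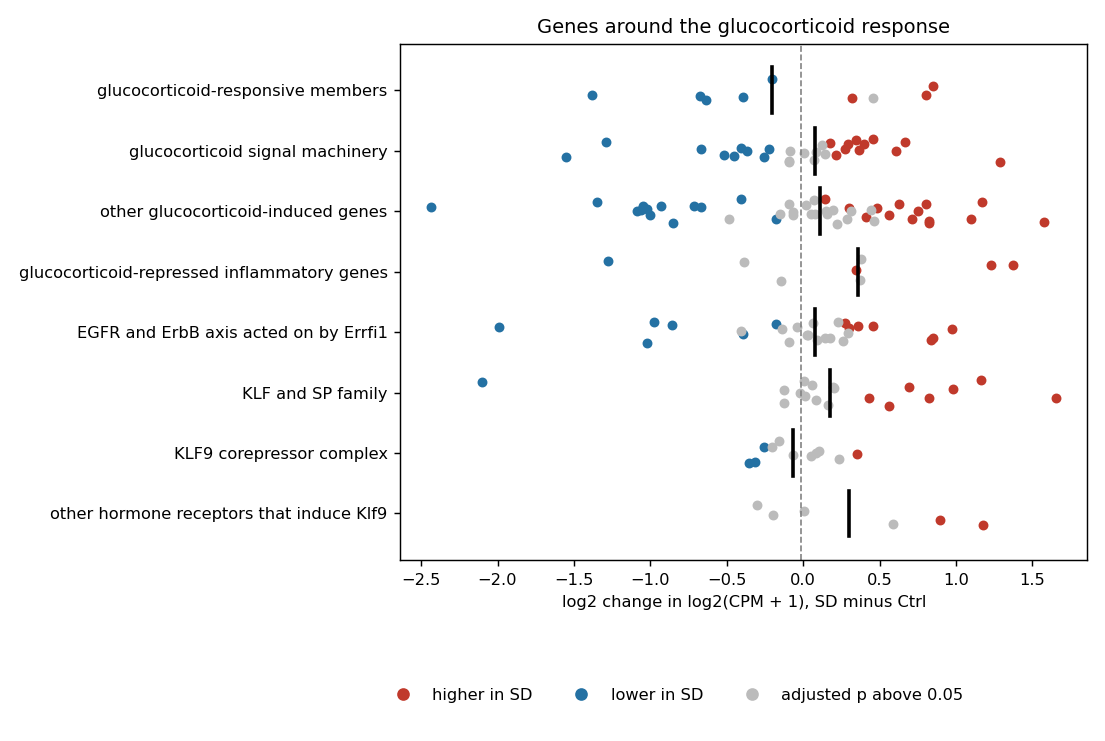
Log2 change, SD minus Ctrl, of each tested gene in the members and in 7 lists around them (1 point per gene, coloured by direction where the adjusted p was under 0.05); black bars are list medians and the dashed line is the median of all genes tested, -0.01. Every list has points on both sides of 0, with medians from -0.20 for the members to 0.36 for the repressed inflammatory genes.

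ERRFI1 acts on the receptors of the EGFR family, and 26 of 33 listed genes of that axis were tested; Areg and Ereg were not analysed here. Of the 26, 7 rose, 6 fell and 13 did not pass (50.0% passing beside 56.4% of all genes, median log2 change 0.08). Erbb3, the kinase-impaired receptor for neuregulins, fell, like Errfi1, to 21.7, 19.1 and 15.2 CPM in SD, against 78.8, 76.2 and 73.8 CPM in Ctrl (4.09-fold, adjusted p = 1.0e-17). Erbb2 was at 44.8 ± 5.87 CPM in SD and 43.8 ± 1.51 CPM in Ctrl (adjusted p = 0.86). Egfr had 5 to 11 reads per SD library and 5 to 16 per Ctrl library and did not pass (adjusted p = 0.89), with a 95% interval of the log2 change from -0.61 to 0.73 on the log2(CPM + 1) scale.

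Among the ligands, Tgfa rose 2.11-fold (adjusted p = 6.6e-05) and Nrg1, which binds ERBB3, 1.94-fold (adjusted p = 0.00069), while Hbegf did not pass at 7.50 ± 1.48 CPM in SD and 6.01 ± 1.65 CPM in Ctrl (adjusted p = 0.30). Lrig1, another feedback inhibitor of these receptors, rose to 18.6 ± 1.80 CPM in SD, against 9.94 ± 1.01 CPM in Ctrl (adjusted p = 9.1e-05), the opposite direction to Errfi1. The adaptor Shc1 fell 1.83-fold (adjusted p = 1.6e-11) and Adam17, the protease that releases several of the ligands, 2.09-fold (adjusted p = 5.5e-09).

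In the family of Klf9, 18 other KLF and SP genes were tested. Of the 18, 7 rose, 1 fell and 10 did not pass (44.4% passing beside 56.4% of all genes, median log2 change 0.18). Klf4, a barrier and stemness factor, rose to 230 ± 2.06 CPM in SD, against 130 ± 5.61 CPM in Ctrl (adjusted p = 6.7e-15). Klf7 measured 121, 113 and 125 CPM in SD, against 48.9, 55.4 and 54.1 CPM in Ctrl, a 2.26-fold rise (adjusted p = 1.6e-15). Klf6 rose 1.48-fold (adjusted p = 2.9e-11), and Klf4, Klf6 and Klf15 also belong to the wider list above. Sp5, a target of Wnt signalling, was the faller, at 7.00 ± 0.941 CPM in SD and 33.2 ± 2.50 CPM in Ctrl (adjusted p = 7.2e-14).

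KLF9 recruits the SIN3A corepressor complex. All 11 listed genes of it were tested. Of the 11, 1 rose, 3 fell and 7 did not pass (36.4% passing, beside 56.4% of all genes). Sin3a itself was at 101 ± 2.45 CPM in SD and 97.8 ± 3.88 CPM in Ctrl (adjusted p = 0.55). Rbbp7, a histone chaperone, rose 1.28-fold (adjusted p = 2.8e-07), and its paralog Rbbp4 fell 1.28-fold (adjusted p = 2.4e-05), with Hdac1 and Sin3b 1.20-fold and 1.25-fold lower.

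Other hormone receptors and their partners were tested in 6 of 13 listed genes. Of the 6, 2 rose, 0 fell and 4 did not pass (33.3% passing, beside 56.4% of all genes). By the same test, 0 rose without SD replicate 1, 1 without SD replicate 2 and 1 without SD replicate 3. The thyroid hormone receptors Thra and Thrb were among the 60 genes left out, which were all higher in SD, so these counts do not cover them. Esr2, an oestrogen receptor, had 13, 15 and 10 reads in SD, against 2, 3 and 1 in Ctrl (adjusted p = 0.0022). It was tested only because its SD libraries reached 1 CPM, while its Ctrl libraries all lay lower. Its place among the genes that rose is thus tied to the filter and is not independent support.

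Cell type markers moved in the same libraries, and their part in the changes of the members was not tested. Over all genes tested 27.7% were higher and 28.7% lower in SD. In Ccdc78, Rsph4a, Cyp2s1, Cspg4 and Cd3e all SD libraries reached 1 CPM, but not all Ctrl libraries, and SD was higher. In Itgax, Mmp8 and Rgs5 all Ctrl libraries reached 1 CPM, but not all SD libraries, and Ctrl was higher. The directions of these markers in the counts below are tied to the filter and are not independent support. The sums below leave out the 60 genes, and some rest mostly on few genes. Sftpc alone had 4033 CPM in Ctrl among the type 2 alveolar markers. Tppp3 and Tubb4b had 1006 and 859.5 CPM in SD among the ciliated markers. Ramp2 and Tie1 had 1133 and 957.7 CPM in SD among the endothelial markers, and Tek, another of these, was among the 60 genes. Atp6v0d2 had 209.8 CPM in Ctrl among the macrophage markers. Type 2 alveolar markers fell in 7 of 7 tested cases of 12 listed, with a summed level of 1359 to 1441 CPM in SD and 4937 to 5449 CPM in Ctrl. Of 7 tested alveolar macrophage and phagocyte markers, 12 being listed, 5 were lower and 1 was higher, and 1 missed the threshold (131 to 139 CPM in SD, 368 to 386 CPM in Ctrl). Ciliated markers rose in 8 of 8 of 11 listed (2209 to 2258 CPM in SD, 816 to 819 CPM in Ctrl). Endothelial markers rose in 10 of 10 of 14 listed (3027 to 3114 CPM in SD, 1059 to 1111 CPM in Ctrl). Of 12 smooth muscle and pericyte markers, 9 were higher and 2 lower, and 1 missed the threshold (1324 to 1335 CPM in SD, 638 to 675 CPM in Ctrl).

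Type 1 alveolar markers were mixed, 3 higher, 4 lower and 1 not passing of 8 tested and 10 listed (1656 to 1690 CPM in SD, 1932 to 2014 CPM in Ctrl). A further type 1 marker, Cav1, was among the 60 genes left out, which were all higher in SD. It had 769.5 CPM in SD and 343.2 CPM in Ctrl, so the direction of that sum depends on leaving it out. Fibroblast and mesothelial markers were 4 higher, 3 lower and 1 not passing of 8 tested and 12 listed (1576 to 1608 CPM in SD, 1828 to 1875 CPM in Ctrl). Club and secretory markers rose in 3 of 3 tested, 8 being listed (1184 to 1242 CPM in SD, 383 to 414 CPM in Ctrl). That sum was nearly all Aldh1a1, at 1192 CPM in SD and 390 CPM in Ctrl. Few lymphocyte and neutrophil markers were tested, 3 of 8 listed for B cells, 2 of 11 for T and NK cells and 2 of 8 for neutrophils, and the rest were not analysed here. The tested B cell markers summed to 33.8 to 37.5 CPM in SD and 10.8 to 13.2 CPM in Ctrl, T and NK cell markers to 15.4 to 22.1 CPM in SD and 6.49 to 9.40 CPM in Ctrl, and neutrophil markers to 1.38 to 3.73 CPM in SD and 5.80 to 6.84 CPM in Ctrl. No tested marker was at 0 in any library, since the table holds no value under 1 read.

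**Figure D5:**
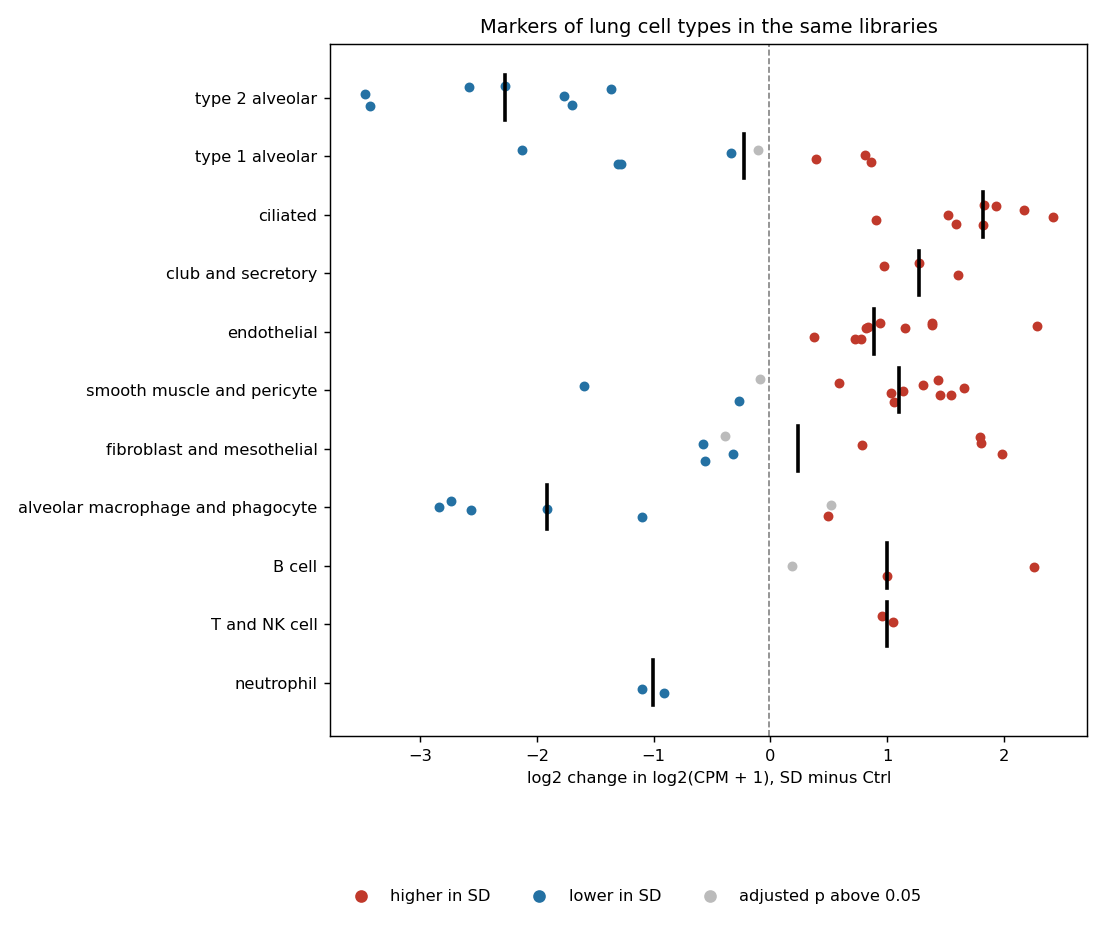
Log2 change, SD minus Ctrl, of each tested marker of 11 lung cell types (1 point per gene, coloured by direction where the adjusted p was under 0.05); black bars are medians and the dashed line is the median of all genes tested. Type 2 alveolar and macrophage medians lie at -2.27 and -1.91, and ciliated, endothelial and smooth muscle medians at 1.82, 0.89 and 1.10.

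The genes nearest to each member in pattern were those with the smallest distance between profiles of log2(CPM + 1) over the 6 libraries, each centred on its own Ctrl mean. For Klf9 they were Hipk2, Ccnl1 and Klf4, at distances of 0.068, 0.089 and 0.090 log2 units. Hipk2 measured 163 CPM in SD and 91.9 CPM in Ctrl, and Ccnl1 443 CPM in SD and 249 CPM in Ctrl. For Errfi1 they were Kctd1, Insig1 and Cux1, at 0.091, 0.148 and 0.193, and Insig1 measured 14.4 CPM in SD and 40.1 CPM in Ctrl.

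Among the genes nearest to the other members were Cltb for Cebpd (0.054), Nenf for Tsc22d3 (0.050), Atp5g3 for Sgk1 (0.036), Pnrc2 for Ddit4 (0.106), Chchd3 for Fkbp5 (0.074), Plekhh2 for Zbtb16 (0.113) and Nup160 for Hif3a (0.060). No member was among the 3 nearest genes of another member. With 2 groups of 3 libraries such distances rest mainly on the difference between the groups.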

How the data were processed

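RNA was measured in 6 lung tumour libraries, 3 SD and 3 Ctrl. The labels describe TRIzol extraction and NEBNext Ultra libraries and give no strand setting. HISAT2 2.0.5, featureCounts 1.5.0-p3 and mm10 are named in the submitters' processing notes, without settings. The authors deposited CPM values for 10191 genes, per the file headers. The sources used here do not say how those genes were selected.

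The 60 rows ahead of Aaas were left out, leaving 10131 genes, in which every value was a whole multiple of the CPM of 1 read (tolerance 0.01 read; 99.8% of values in the whole table). These multiples gave the library totals and recovered reads. A gene was tested if 3 or more libraries reached 1 CPM (9945 genes). Some low genes met this only through the group where they were high, among them Esr2, Nos2, Tfcp2l1, Mfsd2a and the cell type markers named above for this. The test was limma 3.58.1 with trend on log2(CPM + 1), with no term besides group, 2-sided, and Benjamini-Hochberg adjustment at 0.05. The design had named edgeR for counts and limma for CPM. Changes on that scale understate those of low genes; folds are ratios of mean CPM. Floors in reads cover counting error only. The labels say biological replicate and no more, so the p-values reflect the spread among these libraries, which may be technical.

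Alternatives were TMM and DESeq2 size factors, quantile normalization, pseudocounts of 0.1 and 0.5, no filter, a filter of 10 CPM, sample weights, edgeR 4.0.16 and DESeq2 1.42.0 on recovered reads (5533 and 5187 genes called), the 60 rows kept, the replicate number as a block, and each library left out. The limma script was tested on simulated data. The members and lists were chosen with earlier results of these data known. Named genes were every member; up to 3 rises and 3 falls with the smallest p in each list; Egfr, Erbb2, Erbb3, Hbegf, Nr3c1, Nr3c2, Per1, Klf15, Dusp1, Sin3a and Hsd11b1 whatever their p; and the 3 genes nearest to each member. The genotype and some genes that this rule names are not reported here. Gene names and exon lengths came from GENCODE M21.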

Additional observations from a re-analysis of the deposited data

How the results depend on the processing

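Over 18 alternative settings the 3 members that rose and the 5 that fell passed in every one, and Hif3a passed in 0 of the 17 that tested it (adjusted p 0.14 to 0.36). Errfi1 ran from -1.45 to -1.34, Klf9 from 0.73 to 0.85, Cebpd from 0.73 to 0.88, Tsc22d3 from 0.26 to 0.33, Zbtb16 from -0.70 to -0.57, Fkbp5 from -0.72 to -0.63, Ddit4 from -0.48 to -0.29 and Sgk1 from -0.30 to -0.18 on the log2 scale. The count of changed genes was 4597 with the filter of 10 CPM, which tested fewer genes, and up to 5667 with the 60 rows kept; leaving out 1 library gave 4968 to 5219. The replicate number carried no pairing: deviations of libraries that share a number had correlations of -0.007, -0.019 and 0.013. A fit with the replicate block called 5552 genes, 2729 of them higher in SD and 2823 lower, and again 3 members higher and 5 lower. With the filter of 10 CPM the repressed inflammatory list had 0 falls and the hormone receptor list 0 rises, as their low genes were not tested. The SIN3A complex had 2 rises with DESeq2 size factors and 2 with quantile normalization, and the cause was not tested. Leaving out 1 library gave 0 to 2 rises and 0 to 1 falls among the hormone receptor genes. Near 0, Egfr turned to -0.056 and -0.12 without Ctrl replicate 1 or 2, and Erbb2 to -0.055 and -0.00014 without SD replicate 1 or 2; over all runs that left out 1 library Egfr reached 0.25 (0.247) and Erbb2 0.13 (0.130), and the cause was not tested. At these depths genes under about 1 CPM rest on few reads, and no batch is given in the labels.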
